A study of Homo sapiens with 12 samples.

Results

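Eph receptors and ephrins were followed across 12 messenger RNA libraries of 786-O cells. This human line was derived from a clear cell kidney tumour and has no working VHL protein. The 9 genes described are the receptors EPHB4, EPHB2, EPHB3, EPHA2 and EPHA4 and the ligands EFNB1, EFNB2, EFNA1 and EFNA5, out of 58381 genes in the deposited table. They were picked by name from the family and were chosen by measured values, the fall of EPHB4 in CPM with the first RARRES2 hairpin against control, so values of that hairpin against the control are given as a description only. All cells had been infected with a lentiviral hairpin. The control group carried a hairpin against GFP (shGFP). Cells in the other groups received shRARRES2_1, shRARRES2_2 or shRARRES2_3, directed at the messenger RNA of chemerin, a secreted chemoattractant. There were 3 libraries in each of the 4 groups, all from this 1 cell line. No label says that these came from separate cultures, so p-values measure only the spread between the libraries, which may be technical.

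Eph receptors are receptor tyrosine kinases that bind ephrins on neighbouring cells. A-class ephrins are held in the membrane by a lipid anchor, whereas B-class ephrins span it and can signal backwards into their own cell. Binding usually drives repulsion, cell sorting and changes in the actin cytoskeleton. EPHB4 is best known as the venous receptor of ephrin-B2 in blood vessels, and EPHA2 is abundant in many epithelial cancers, where it pairs with ephrin-A1.

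On GRCh38, GENCODE 29 places EPHB4 (ENSG00000196411.9) at chr7:100802565-100827521 on the minus strand. EPHB2 (ENSG00000133216.16) lies at chr1:22710839-22921500 and EPHB3 (ENSG00000182580.2) at chr3:184561784-184582409, both on the plus strand. EPHA2 (ENSG00000142627.12) lies at chr1:16124337-16156087 and EPHA4 (ENSG00000116106.11) at chr2:221418027-221574202, both on the minus strand. Among ligands, EFNB1 (ENSG00000090776.5) lies at chrX:68828997-68842147 and EFNA1 (ENSG00000169242.11) at chr1:155127460-155134857 on the plus strand. EFNB2 (ENSG00000125266.7) at chr13:106489731-106535662 and EFNA5 (ENSG00000184349.12) at chr5:107376889-107670895 are on the minus strand.

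The 250 bases before the RefSeq start of EPHB4 and of its ligand EFNB2 are shown, because the choice of genes turned on EPHB4 and EFNB2 is the ligand it is paired with. Both are from RefSeq on GRCh38.p14, minus strand, read 5′ to 3′, and neither overlaps an exon annotated in GENCODE 29. EPHB4 covers chr7:100827524-100827773 and EFNB2 covers chr13:106535663-106535912. Capitals mark ACGTG or GCGTG on either strand, the core letters of hypoxia response elements.
EPHB4: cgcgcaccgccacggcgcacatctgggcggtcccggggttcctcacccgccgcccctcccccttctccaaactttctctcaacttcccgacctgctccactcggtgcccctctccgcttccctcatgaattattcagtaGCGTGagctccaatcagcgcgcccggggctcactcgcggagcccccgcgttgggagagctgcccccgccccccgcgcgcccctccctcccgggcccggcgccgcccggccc
EFNB2: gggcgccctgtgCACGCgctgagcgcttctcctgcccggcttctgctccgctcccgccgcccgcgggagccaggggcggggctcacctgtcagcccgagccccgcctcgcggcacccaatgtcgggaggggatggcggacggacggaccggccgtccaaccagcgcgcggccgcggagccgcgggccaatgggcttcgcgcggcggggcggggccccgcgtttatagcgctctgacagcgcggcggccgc
Each window held 1 such match, and no matches overlapped. Over all 35116 promoter windows of this length, 43.2% held at least 1. GC content was 72.8% for the EPHB4 window and 78.4% for the EFNB2 window. A match describes letters and not a bound site.

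Recovered depth was 12599424 to 23594195 reads on genes per library, and 3 reads corresponded to 0.131 to 0.223 CPM. RARRES2, the targeted gene, averaged 587 ± 192 CPM in control cells (SD, n = 3) and fell with each hairpin, to 39.7 ± 1.91, 73.2 ± 19.5 and 44.8 ± 4.72 CPM in order (SD, n = 3 each). The limma adjusted p was 9.49e-05, 0.00165 and 1.60e-04. PAX8, a renal lineage factor, had 239 to 594 CPM in every library, while CA9, a hypoxia target common in clear cell tumours, had only 0.212 to 3.40 CPM. The nearest library by log2 level lay in another group for 6 of the 12 libraries. shRARRES2_1 replicates 2 and 3 were unusually close, although their reads differed by more than sampling noise (chi-square of 3.08 per gene, against 53.0 or more for every other pair of libraries). Both were kept as separate libraries in the main fit, and so enter its shared spread. shGFP and shRARRES2_3 replicates 2 stood apart. The summed level of 18 mitosis genes was 359 and 556 CPM in them, against 1389 to 5959 CPM in the other 10 libraries. Replicates 1 of shRARRES2_1 and shRARRES2_3 were also nearest to each other (r = 0.981), with reads on 21217 and 20932 genes against 24065 or more elsewhere.

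EPHA2 was the leading receptor. Levels between genes are compared per kilobase of annotated exon. In shGFP, EPHA2 had 50.9 ± 25.5 CPM per kilobase (SD, n = 3). EPHB2, a receptor for B-class ephrins that acts in cell sorting, followed among the described receptors with 3.44 ± 1.02, then EPHB4 with 1.20 ± 0.690, EPHA4 with 0.478 ± 0.197 and EPHB3 with 0.0115 ± 0.0199 (all CPM per kilobase, SD, n = 3). EPHB4 and EPHA4 lay within their spread of each other when SDs are compared, although EPHB4 was above EPHA4 within each shGFP library. Of the summed level per kilobase of all 14 Eph receptors, EPHA2 held 68.9% to 88.8% across the 12 libraries. EPHB2 held 3.97% to 12.1% and EPHB4 0.16% to 4.20%. EPHB1, read below with the rest of the family, held 3.75% to 17.9%. In shGFP EPHB1 had 5.16 ± 2.90 CPM per kilobase (SD, n = 3). Its share was above that of EPHB2 in every RARRES2 hairpin library and in shGFP replicate 2. In the other controls the share of EPHB1 was below that of EPHB2.

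Among ligands in shGFP, EFNA1 had 24.8 ± 19.7, EFNB1 10.4 ± 2.23, EFNA5 8.26 ± 3.34 and EFNB2 4.13 ± 1.26 CPM per kilobase (SD, n = 3). EFNA1 overlapped its neighbour EFNB1 within its SD, as did EFNB1 and EFNA5. Within each shGFP library, however, EFNA1 was above EFNB1 and EFNB1 above EFNA5. The order was not the same in all groups. The mean share of EFNA1 in the summed level per kilobase of 8 ephrins was 43.1% in shGFP and 44.0% with shRARRES2_3, against 17.1% with shRARRES2_1 and 18.8% with shRARRES2_2. EFNB1 had the larger mean share in the last 2 groups, 35.1% and 31.3%.

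**Figure D1:**
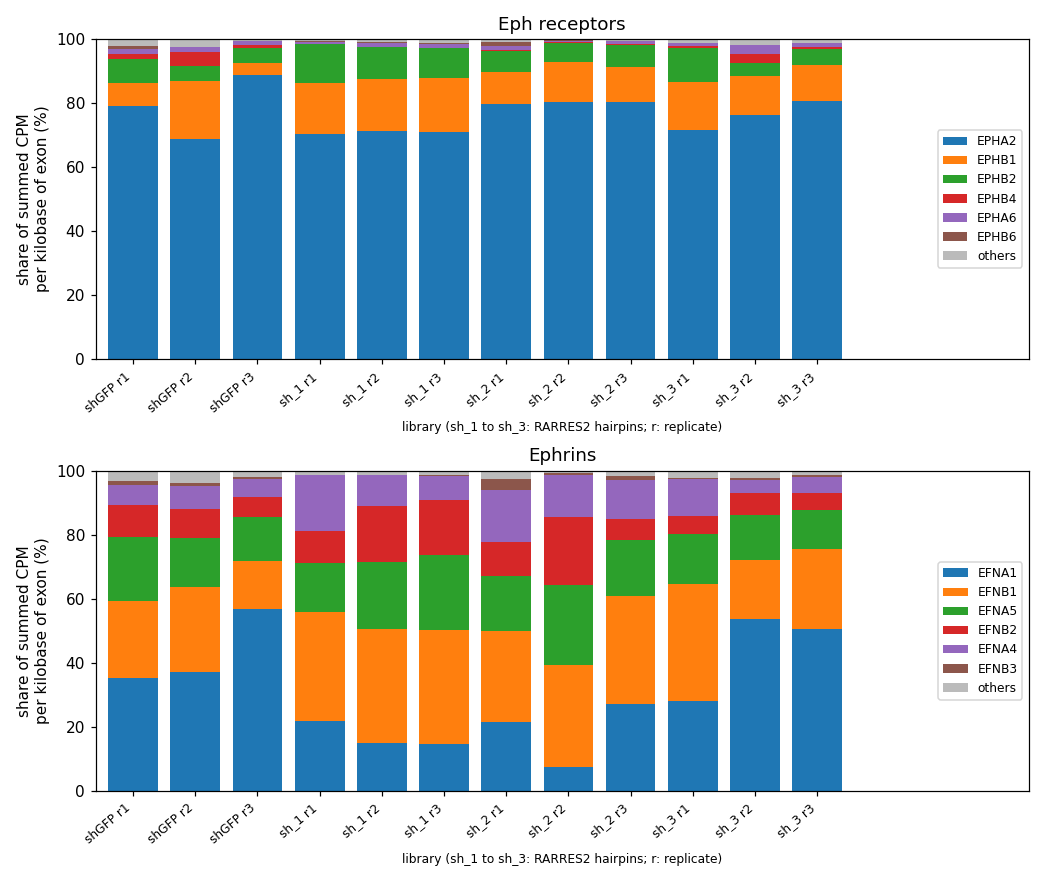
Stacked bars give the percent share of each gene in the summed CPM per kilobase of exon of 14 Eph receptors (upper) and 8 ephrins (lower), 1 bar per library. EPHA2 fills 68.9% to 88.8% of the receptor bars, and EFNA1 fills between 7.53% and 56.8% of the ephrin bars.

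EPHB4 was highest in the control cells and lowest with shRARRES2_1. The 3 shGFP libraries had 4.83, 12.8 and 5.50 CPM in replicate order. With shRARRES2_1 they had 0.690, 0.921 and 0.573 CPM (12 to 19 reads). With shRARRES2_2 the level was 1.53, 1.55 and 1.53 CPM (26 to 35 reads), and with shRARRES2_3 it was 2.55, 6.88 and 2.47 CPM. All shRARRES2_1 libraries lay below all shRARRES2_2 libraries, these lay below all shRARRES2_3 libraries, and shRARRES2_3 overlapped with the control through replicate 2 alone.

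**Figure D2:**
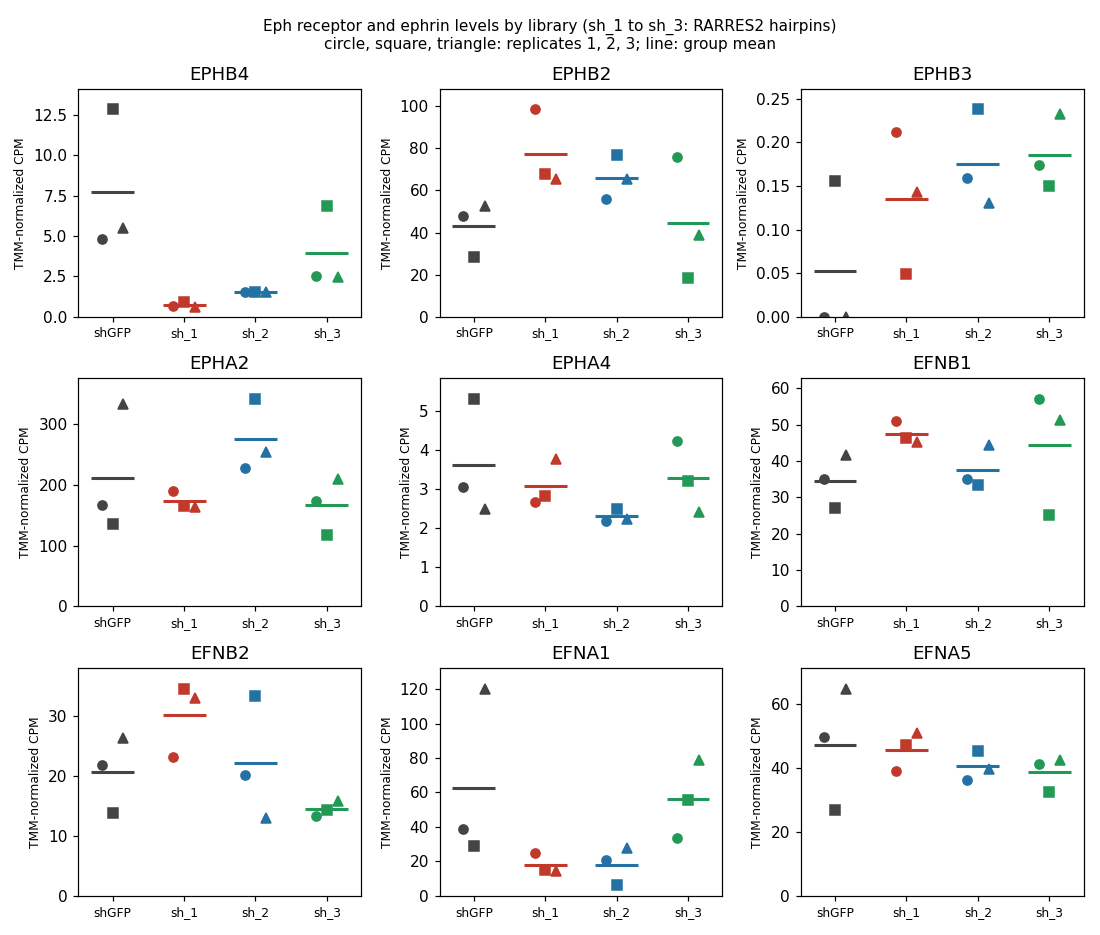
Each panel shows 1 gene in TMM-normalized CPM (y axis, from 0) for the 4 groups, with circles, squares and triangles for replicates 1, 2 and 3 and a line at the group mean. EPHB4 sits at or below 1.55 CPM in the shRARRES2_1 and shRARRES2_2 libraries and at or above 2.47 CPM elsewhere.

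The mean of EPHB4 was 0.728 ± 0.177 CPM with shRARRES2_1 and 7.72 ± 4.44 CPM in shGFP (SD, n = 3), a ratio of 0.0943. The difference in log2(CPM + 1), a scale that makes changes of low genes look smaller, was -2.23 (SE 0.39). This is the contrast that chose EPHB4, so no test is attached. In it 1 of the 8 genes tested was called, against 0.171% of all 15236 genes tested, and nothing is read from that count.

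With shRARRES2_2, a group that had no part in the choice, EPHB4 had 1.54 ± 0.00958 CPM (SD, n = 3), a ratio of 0.199 to the same controls. Each of these libraries held only 26 to 35 reads of EPHB4, so counting error is larger than this SD. The log2 difference of EPHB4 was -1.67 (SE 0.39, 95% interval -2.51 to -0.83). limma did not call it (adjusted p = 0.164), although it was lower in 3 of 3 libraries. The control values are those used in choosing the gene, so this difference is not independent of the choice. DESeq2 on recovered reads did call it (adjusted p = 0.00337) and edgeR did not (adjusted p = 0.203). DESeq2 called many more genes in this comparison, 347 over all genes, against 7 by limma and 3 by edgeR. Without shRARRES2_3 replicate 2, which serves only to estimate the spread, limma called EPHB4 as well (adjusted p = 0.0422). It was then among 119 genes called. Over all alternatives the adjusted p ran from 0.00337 to 0.521.

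With shRARRES2_3 the EPHB4 mean was 3.97 ± 2.53 CPM (SD, n = 3), with a log2 difference of -0.81 to shGFP (SE 0.39, 95% interval -1.65 to 0.03, limma adjusted p = 0.876). Same-numbered libraries of these groups deviated together (r of 0.272 to 0.604). Still, shGFP replicate 1 was more like shRARRES2_3 replicate 3 (r = 0.387) than replicate 1 (r = 0.272), so pairing by number is an assumption. Within numbers the log2 difference of EPHB4 was -0.71, -0.81 and -0.91 in replicate order. EPHB4 was thus lower with shRARRES2_3 in 3 of 3 pairs taken by number. The share of all genes that were lower in 3 of 3 is not given, so nothing is read from that count. A limma fit of these groups with the replicate block, added after seeing the data, did not call EPHB4 (SE 0.29, adjusted p = 0.661). The difference between shRARRES2_2 and shRARRES2_3 does not use the levels that chose EPHB4, but those libraries enter the filter and the shared spread behind its SE and p. This log2 difference was -0.86 (SE 0.39, 95% interval -1.70 to -0.02), without overlap of the libraries and without a call (limma adjusted p = 0.585). It ran from -1.48 with DESeq2 to -0.47 without shRARRES2_3 replicate 2, with no call. Leaving out that library took shRARRES2_3 against shGFP to -1.20, and leaving out shGFP replicate 2 took it to -0.42.

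EPHB4 moved with the libraries that stood apart. Its highest levels in the series, 12.8 and 6.88 CPM, were in shGFP and shRARRES2_3 replicates 2, which had the lowest mitosis sums. shGFP replicate 2 also had 10 of 14 keratinocyte markers at 1 CPM or more, against 2 to 6 elsewhere, with a summed level of 550.4 CPM. That sum was 67.0 and 95.1 CPM in the other controls, 61.5 to 149.7 CPM with shRARRES2_1, 54.7 to 61.7 CPM with shRARRES2_2 and 54.9 to 121 CPM with shRARRES2_3. Outside shGFP replicate 2, KRT10 alone gave 40.1 to 113 CPM of it. In shGFP replicate 2, 9 of 10 fibroblast markers were at 1 CPM or more, with a fibroblast sum of 112 CPM. The fibroblast sum was 5.27 and 21.8 CPM in the other controls, 17.1 to 32.2 with shRARRES2_1, 28.4 to 86.3 with shRARRES2_2 and 16.8 to 41.9 with shRARRES2_3. LUM alone gave 70.2 CPM of the 86.3 CPM, in shRARRES2_2 replicate 1. KRT5, which defines basal keratinocytes, had 169 CPM in shGFP replicate 2 and 0 to 8.18 CPM elsewhere. In bulk samples fewer cells of a type and less RNA per cell cannot be told apart. The part of the mitosis, keratinocyte and fibroblast genes in the EPHB4 values was not tested. Without shGFP replicate 2 the log2 difference was -1.84 with shRARRES2_1 and -1.28 with shRARRES2_2 (limma adjusted p = 0.336 for the latter). With both replicates 2 left out, shRARRES2_3 against shGFP kept a difference of -0.81 (limma adjusted p = 0.347).

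**Figure D3:**
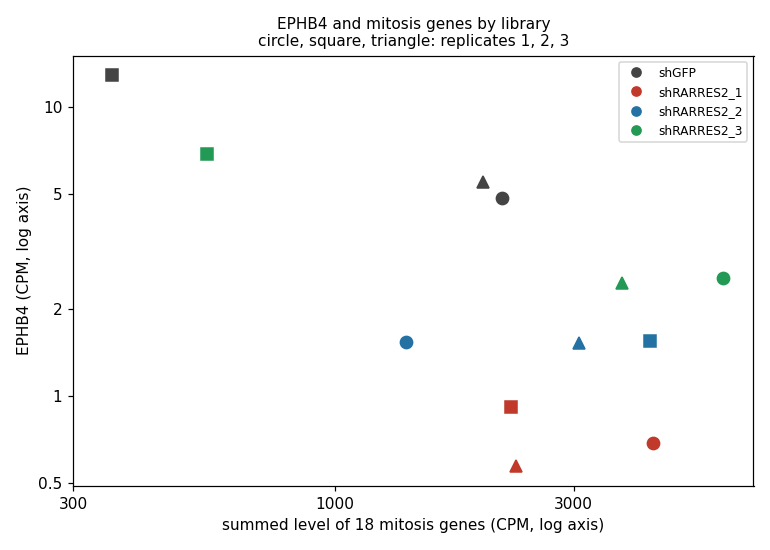
Each point is 1 library, with the summed CPM of 18 mitosis genes on the x axis and EPHB4 CPM on the y axis (both log axes), coloured by group and shaped by replicate number. shGFP and shRARRES2_3 replicates 2 lie at the upper left with 12.8 and 6.88 CPM of EPHB4. The other 10 libraries span 1389 to 5959 CPM of mitosis genes.

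Endothelial markers were read because EPHB4 and EFNB2 mark veins and arteries, and CDH5 and VWF were near 0. VE-cadherin CDH5 was at or below 0.200 CPM and VWF at or below 0.249 CPM in every library. TIE1, an endothelial receptor, reached 3.74 and 4.34 CPM in replicates 2 of shGFP and shRARRES2_3, the libraries with most EPHB4, and at most 0.921 CPM elsewhere. Its part in the EPHB4 values was not tested. The list sum was 15.3 to 36.6 CPM in shGFP, 34.9 to 39.1 with shRARRES2_1, 6.06 to 21.3 with shRARRES2_2 and 17.4 to 35.4 with shRARRES2_3. EGFL7 alone gave 2.32 to 33.6 CPM of it, and only 1 to 4 of the list's markers reached 1 CPM. Leukocyte markers summed to at most 8.64 CPM, and PTPRC was at or below 0.148 CPM. EPHB4 shares 69 exon bases with SLC12A9 on the other strand, and whether counting used strand is not stated. SLC12A9 had 57.5, 24.4 and 56.3 CPM in shGFP, 88.7, 37.6 and 36.8 with shRARRES2_1, 110.66, 57.5 and 57.2 with shRARRES2_2 and 135.04, 26.5 and 97.2 with shRARRES2_3. It was lowest in its group in shGFP and shRARRES2_3 replicates 2, and its part in the EPHB4 values was not tested.

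The control libraries had 47.9, 28.5 and 52.7 CPM of EPHB2, and those of shRARRES2_1 had 98.5, 68.0 and 65.4 CPM. It had 55.9, 77.1 and 65.6 CPM with shRARRES2_2 and 76.0, 18.5 and 38.8 CPM with shRARRES2_3. Every library of the first and second hairpin was above every control, while shRARRES2_3 straddled the controls and had its low value in replicate 2. The log2 difference was 0.85 (SE 0.43) with shRARRES2_1, as a description. It was 0.64 (SE 0.43, limma adjusted p = 0.499) with shRARRES2_2 and -0.13 (SE 0.43, limma adjusted p = 0.952) with shRARRES2_3. shRARRES2_1 and shRARRES2_3 replicates 1, which were alike over all genes, held the highest EPHB2 of their groups. EPHB2 was high in the 2 groups in which EPHB4 was lowest, without a call. The lowest EPHB2 of shGFP and of shRARRES2_3, 28.5 and 18.5 CPM, was in their replicates 2, the libraries with most EPHB4. With 1 library left out, the log2 difference of EPHB2 with shRARRES2_2 against shGFP ran from 0.378 to 0.81. The part of these libraries in the EPHB2 pattern was not tested.

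EPHA2 was at 166, 136 and 333 CPM in shGFP. With shRARRES2_1 it had 190.1, 166 and 164 CPM, with shRARRES2_2 228, 342 and 255 CPM, and with shRARRES2_3 173, 118 and 209.9 CPM. The control libraries spanned nearly the whole range, so no hairpin stood clear of them. Between hairpins, every shRARRES2_2 library was above every shRARRES2_3 library, by a log2 difference of 0.73 (SE 0.34, 95% interval -0.01 to 1.48, limma adjusted p = 0.599). Against shGFP its log2 differences were 0.46 with shRARRES2_2 and -0.27 with shRARRES2_3 (SE 0.34, limma adjusted p = 0.538 and 0.883).

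EPHA4, which binds ephrins of both classes, had 2.48 to 5.30 CPM in shGFP, 2.66 to 3.77 with shRARRES2_1, 2.17 to 2.497 with shRARRES2_2 and 2.42 to 4.23 with shRARRES2_3. All groups overlapped with the control. EPHA4 shares 353 exon bases with an antisense gene. Its log2 difference was -0.44 with shRARRES2_2 (SE 0.30, limma adjusted p = 0.508). EPHB3, a receptor known from intestinal crypts, had 0 to 5 reads in each library and did not pass the filter on low values. It had no reads in shGFP replicates 1 and 3, where the limit of 3 reads is 0.223 and 0.133 CPM, so no difference was detectable at this depth.

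EFNA1, the ligand most often paired with EPHA2, was low with the first and second hairpin. It had 39.0, 29.1 and 120.35 CPM in shGFP. With shRARRES2_1 it had 24.9, 14.97 and 14.3 CPM and with shRARRES2_2 20.5, 6.06 and 27.6 CPM. The shRARRES2_3 libraries had 33.4, 55.7 and 78.8 CPM, within the range of the controls. Every library of the first and second hairpin was below every library of the control and of shRARRES2_3.

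For EFNA1 the log2 difference with shRARRES2_1 was -1.51 (SE 0.58), as a description. With shRARRES2_2 it was -1.69 (SE 0.58, 95% interval -2.96 to -0.42, limma adjusted p = 0.282). Against shRARRES2_3, shRARRES2_2 was lower by a similar amount, -1.72 (SE 0.58, 95% interval -2.99 to -0.45, limma adjusted p = 0.423). Neither difference was called. shGFP replicate 3, at 120.35 CPM, and shRARRES2_2 replicate 2, at 6.06 CPM, widened the gap. Leaving out either gave -1.09 for shRARRES2_2 against shGFP. Without the former, shRARRES2_1 against shGFP was -0.91, and without the latter, shRARRES2_2 against shRARRES2_3 was -1.12. EFNA1 with shRARRES2_3 differed from shGFP by 0.03 (SE 0.58, 95% interval -1.24 to 1.30, limma adjusted p = 0.992).

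For EFNB1 and EFNB2, no hairpin group lay wholly below the controls. EFNB2, the transmembrane ligand of EPHB4, had 21.9, 13.9 and 26.3 CPM in shGFP. It had 23.1, 34.6 and 33.0 CPM with shRARRES2_1, 20.2, 33.3 and 13.0 CPM with shRARRES2_2 and 13.4, 14.3 and 15.8 CPM with shRARRES2_3. All hairpin groups overlapped with the control. The log2 difference of EFNB2 was 0.55 with shRARRES2_1 as a description, 0.04 with shRARRES2_2 and -0.44 with shRARRES2_3 (SE 0.35, limma adjusted p = 0.963 and 0.876 for the last 2). An antisense gene shares 1313 exon bases with EFNB2, so reads of the pair cannot be separated if counting ignored strand.

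EFNB1, the X-linked ligand of EPHB2, ranged from 27.0 to 41.7 CPM in control cells. The shRARRES2_1 libraries, at 45.3 to 51.0 CPM, did not overlap with them. It had 33.4 to 44.4 CPM with shRARRES2_2 and 25.2 to 57.1 CPM with shRARRES2_3, both overlapping with the control (limma adjusted p = 0.857 and 0.876). Its highest values in shRARRES2_1 and shRARRES2_3 were again in replicates 1, at 51.0 and 57.1 CPM. EFNA5, a lipid-anchored ligand of EPHA-class receptors, had close group means. They were 47.1 ± 19.0, 45.7 ± 6.05, 40.5 ± 4.57 and 38.7 ± 5.49 CPM in shGFP and hairpin order (SD, n = 3). Its 95% interval of the log2 difference to shGFP was -0.79 to 0.52 with shRARRES2_2 and -0.86 to 0.46 with shRARRES2_3.

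Counted together, 8 of the 9 genes were tested and none was called by limma with shRARRES2_2 against shGFP, where 0.0459% of all genes were called. At an unadjusted p under 0.05 there were 2, EPHB4 and EFNA1, in limma (13.7% of all genes) and also in edgeR. edgeR called 0 and DESeq2 called 1, EPHB4, where over all genes edgeR called 3, DESeq2 347 and limma 7. With shRARRES2_3 against shGFP limma called 0 of 8 (0.00656% of all genes), with 0 at an unadjusted p under 0.05 (3.32% of all genes) and 0 by edgeR and DESeq2. For shRARRES2_2 against shRARRES2_3 limma called 0 of 8 (0.0919% of all genes), edgeR and DESeq2 called 0, and EPHB4 and EFNA1 again made up the 2 at an unadjusted limma p under 0.05 (8.45% of all genes).

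Groups that did not overlap were common among all genes. With shRARRES2_2 against shGFP, 2 of the 8 lay wholly lower, where 11.7% of all genes did, and 1 lay wholly higher (EPHB2), where 16.4% did. With shRARRES2_3 none lay wholly lower or higher (3.63% and 3.03% of all genes). For shRARRES2_2 against shRARRES2_3 there were 2 wholly lower, EPHB4 and EFNA1, and 1 wholly higher, EPHA2 (5.02% and 8.86% of all genes). With shRARRES2_1 against shGFP the counts were 2 lower and 2 higher (15% and 17% of all genes), and nothing is read from them. The median log2 difference of the 8 genes was -0.05, -0.16 and -0.05 in the comparisons of shRARRES2_2 with shGFP, of shRARRES2_3 with shGFP and between these hairpins, beside 0.07, 0.00361 and 0.05 over all genes. The 3 comparisons with shGFP share its libraries.

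**Figure D4:**
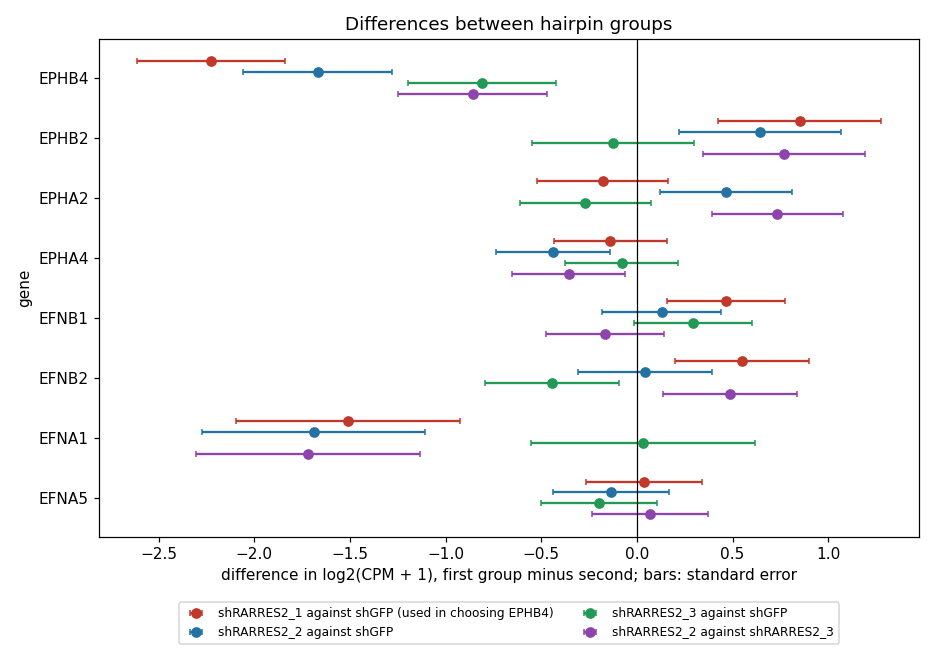
Points give the difference in log2(CPM + 1) between 2 groups for the 8 genes tested and bars give the standard error from limma. EPHB4 lies below 0 in all 4 comparisons, from -2.23 to -0.81, and EFNA1 lies near -1.5 to -1.7 in the comparisons of shRARRES2_1 and shRARRES2_2 but at 0.03 for shRARRES2_3 against shGFP.

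The other 13 family members were read as a list, of which 7 passed the filter. EPHB1, a receptor for B-class ephrins, was the most abundant of them. It had 25.0, 59.2 and 23.5 CPM in shGFP, 72.1, 63.0 and 65.2 with shRARRES2_1, 47.7, 87.2 and 57.4 with shRARRES2_2 and 62.0, 31.9 and 49.1 with shRARRES2_3. Only the shRARRES2_1 libraries were wholly above the controls. Its log2 difference was 0.90 with shRARRES2_2 (SE 0.37, 95% interval 0.09 to 1.71, limma adjusted p = 0.327) and 0.48 with shRARRES2_3 (limma adjusted p = 0.876).

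EPHA6 averaged 5.22 ± 0.833 CPM in control cells, and its hairpin means ran from 3.30 to 5.15 CPM. EFNA4 had 3.99 ± 1.60 CPM in shGFP and means of 4.37 to 6.34 CPM with the hairpins. EFNA3 averaged 1.93 ± 0.159 CPM in control cells (SD, n = 3). In hairpin order its means were 0.892 ± 0.0377, 1.10 ± 0.530 and 1.65 ± 0.275 CPM. EFNA3 and EFNA4 share exon bases with a read-through gene, so their split is uncertain. EPHA1 had means of 1.71, 0.360, 0.677 and 1.08 CPM in shGFP and hairpin order. In the same order EFNB3 had 1.49, 0.330, 1.98 and 0.718 CPM and EPHB6 had 1.35, 1.08, 2.21 and 0.278 CPM. With shRARRES2_1 against shGFP, 4 of the 7 lay wholly lower (EPHA1, EPHA6, EFNA3 and EFNB3) and 1 wholly higher, as a description (15% and 17% of all genes). With shRARRES2_2 against shGFP, 1 lay wholly lower, EFNA3, and 0 wholly higher (11.7% and 16.4% of all genes). EPHA3, EPHA5, EPHA7, EPHA8, EPHA10 and EFNA2 had 0 to 13 reads in each library. No family member outside the 9 was called by limma, edgeR or DESeq2 in any comparison. At an unadjusted limma p under 0.05 there was 1 of 7 with shRARRES2_2 against shGFP, EPHB1, and 0 with shRARRES2_3 against shGFP and with shRARRES2_2 against shRARRES2_3.

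Genes that act with Eph receptors and ephrins were read from 3 lists of 40 genes in all, of which 39 were tested. They hold kinases and adaptors, genes of receptor turnover and partners of ephrin-B tails. limma called 0 of them in every comparison. At an unadjusted limma p under 0.05 there were 3 with shRARRES2_2 and 1 with shRARRES2_3 against shGFP, and 5 between these hairpins, where 13.7%, 3.32% and 8.45% of all genes were. edgeR called 0 throughout. DESeq2 called 0 with shRARRES2_2 against shGFP, and 1, PTPRO, in both comparisons of shRARRES2_3. Over all 15236 genes it called 347 with shRARRES2_2 and 16 with shRARRES2_3 against shGFP, and 196 between these hairpins. With shRARRES2_1 against shGFP it called YES1, a SRC-family kinase, among 497 genes in all. The controls had 124, 221 and 197 CPM of YES1, all above the 44.7, 92.3 and 103 CPM of the shRARRES2_1 libraries. YES1 and PTPRO were chosen for mention after their values were seen. PTPRO, a phosphatase that acts on Eph receptors, had 0.145 ± 0.128 CPM with shRARRES2_3 (1 to 5 reads), 1.39 ± 0.708 CPM in shGFP and 2.11 ± 0.754 CPM with shRARRES2_2 (SD, n = 3). The median log2 difference of the lists was 0.16 with shRARRES2_2 and -0.00497 with shRARRES2_3 against shGFP, beside 0.07 and 0.00361 over all genes.

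ADAM10, a protease that cleaves ephrins, had means of 175, 188, 177 and 166 CPM in shGFP and hairpin order. SRC, a kinase activated by Eph signalling, had 95.7, 128.7, 123 and 113 CPM, and INPPL1, a lipid phosphatase bound by EPHA2, had 197.5, 186, 189.6 and 168 CPM in the same order. RASA1, a Ras GTPase activating protein that binds EPHB receptors, had 41.8, 30.8, 55.7 and 39.6 CPM, and RGS3, a partner of B-class ephrins, had 65.7, 79.0, 86.9 and 107 CPM.

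The genes whose log2 level over the 12 libraries was most like that of EPHB4 were TAGLN (Pearson r = 0.961), RP11-849F2.9 (0.949), RBFOX3 (0.948), CCDC154 (0.946) and EPB41L4A-AS1 (0.945). TAGLN, an actin-binding protein, ran from 0.637 to 12.9 CPM. All 5 had their highest level in shGFP replicate 2. For EPHA2 they were RNASEH2B (r = 0.936), AIDA (0.925), ZFP30 (0.914), SPECC1L (0.893) and SCML2 (0.891), with highest levels in shGFP replicate 3 or shRARRES2_2 replicate 2. These values describe the same 12 libraries, which share depth and scaling, and were the largest among all genes tested.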

How the data were processed

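Group and replicate number come from the titles of the 12 libraries. The authors deposited 1 value per gene and library, a signal in CPM after TMM normalization, per the table's own name. Per the submitters' processing notes, their tools included edgeR, STAR 2.5.2, Trim Galore 0.6.1 and CASAVA, with build hg38 (GRCh38). The counter and its annotation are not given in the sources used here. Divided by the smallest value above 0 in its column, 100% of values were whole at a tolerance of 1e-06, which recovered the reads behind them. Limits from reads cover counting error only. The intervals given for differences come from the limma fit and measure the spread between libraries.

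A gene was tested if 3 or more libraries reached 1 CPM. limma 3.58.1 (R 4.3.3) was run on log2(CPM + 1) with 1 mean per group over all 12 libraries, a trended prior variance, and p-values adjusted by Benjamini-Hochberg over every gene tested, called at 0.05. edgeR 4.0.16 and DESeq2 1.42.0 on recovered reads served as alternatives. The limma fit was tested on simulated data. Coordinates, exon lengths and overlaps are from GENCODE 29, in which all 22 family genes were found. Other alternatives changed the pseudocount, filter, scaling, variance prior or groups fitted, added a replicate block, or left out libraries.

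Genes and lists were chosen with earlier results of these data known. Named genes are the 9 chosen, the rest of the family, 5 preset signalling genes, RARRES2, marker genes and SLC12A9. The 5 genes most like EPHB4 and the 5 most like EPHA2 are named too. Any listed signalling gene that limma called was to be named (none was). YES1 and PTPRO, called by DESeq2 among the 39 listed signalling genes tested, were added after their values were seen. Renal markers summed to 655 to 1368 CPM. Deviations from group means, correlated over genes between same-numbered libraries, gave r of 0.272 to 0.604 for shGFP and shRARRES2_3. The range was 0.413 to 0.754 for shRARRES2_1 and shRARRES2_3. Numbers were taken to pair these groups, but differently numbered libraries could be as alike. shGFP replicate 1 had r of 0.387 with shRARRES2_3 replicate 3 and 0.272 with replicate 1. shRARRES2_1 replicate 3 had r of 0.482 with shRARRES2_3 replicate 2 and 0.413 with replicate 3. No label says what a number marks. A further gene list is not reported here.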

Additional observations from a re-analysis of the deposited data

How the results depend on the processing

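Members called stayed at 0 under every alternative for shRARRES2_3 against shGFP and for shRARRES2_2 against shRARRES2_3. For shRARRES2_2 against shGFP the count was 1 with DESeq2, and 0 to 1 when 1 library was left out (EPHB4, without shRARRES2_3 replicate 2). The EPHB4 log2 difference of shRARRES2_1 against shGFP was -3.12 with a pseudocount of 0.1, -3.40 with edgeR and -3.46 with DESeq2, in place of -2.23, and -2.46 to -1.84 with 1 library left out. The cause was not tested.

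Outside shRARRES2_1 against shGFP, differences that changed sign were uncalled on both sides (lowest adjusted p 0.57). EFNA1 with shRARRES2_3 against shGFP became -0.0735 on a common total, -0.17 with edgeR, -0.15 with DESeq2 and -0.41 without both replicates 2 (-0.374 to 0.632 with 1 library left out). EPHB2 there became 0.045 with edgeR, 0.0304 with DESeq2 and 0.11 without both replicates 2 (-0.614 to 0.376), EPHA4 0.17 without both (-0.259 to 0.168), EPHA2 -0.531 to 0.111 and EFNA5 -0.548 to 0.069. For shRARRES2_2 against shGFP, EFNB2 became -0.0678 on a common total and -0.21 without both (-0.291 to 0.359), EFNB1 -0.03 without both (-0.0349 to 0.27) and EFNA5 -0.482 to 0.135. For shRARRES2_2 against shRARRES2_3, EFNA5 became -0.0123 with DESeq2 and -0.05 without both (-0.0538 to 0.14), and EFNB1 -0.523 to 0.0502. With shRARRES2_1 against shGFP, as a description, 1 library left out gave -0.312 to 0.305 for EFNA5, -0.442 to 0.2 for EPHA2 and -0.317 to 0.11 for EPHA4. The cause was not tested for these either.

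Same-numbered libraries of shRARRES2_2 and shGFP (r of 0.0846 to 0.168) or shRARRES2_3 (-0.152 to 0.152) did not all deviate together, so these share only a number. A replicate block in a fit of only shGFP and shRARRES2_3, added after seeing the data, changed no member's call. With the number as a replicate block the members called stayed at 0, the EPHB4 adjusted p for shRARRES2_2 against shGFP was 0.0884, and 10 genes in place of 7 were called over all genes. For that comparison the count over all genes was 347 with DESeq2, 3 with edgeR, 2 with no filter or on a common total, 0 with only the 2 groups and 119 without shRARRES2_3 replicate 2. With shRARRES2_1 replicates 2 and 3 averaged it was 2 in place of 7. The same step gave 0 in place of 14 for shRARRES2_2 against shRARRES2_3. For shRARRES2_1 against shGFP it gave 6 in place of 26. With 26 to 35 reads of EPHB4 per shRARRES2_2 library, counting error limits its level.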
